A study of Mus musculus with 4 samples.

Results

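The nuclei described here carry the RNA signature of Cajal-Retzius neurons. They numbered 32 and 18 in the libraries labelled Sel1L flox/flox replicates 1 and 2, and 27 and 27 in those labelled Sel1L Syn-Cre replicates 1 and 2, which made 104 of 36094 nuclei. Nuclei were kept if they had over 600 genes and if mitochondrial RNA gave under 5% of their unique molecular identifiers (UMIs, the tags that count RNA molecules). A kept nucleus was a member if it had at least 1 UMI of Trp73, at most 1 UMI of Gad1 and Gad2 together, and a UMI of at least 2 of the 5 genes Reln, Ndnf, Lhx1, Lhx5 and Cacna2d2. The measured counts of these 8 genes therefore chose the nuclei, and their levels are given as a description with no test.

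Cajal-Retzius cells are among the first neurons of the cortex and line its surface in layer 1 and along the hippocampal fissure. They secrete reelin, the extracellular glycoprotein encoded by Reln that guides the layering of later neurons through the receptors VLDLR and APOER2 and the adaptor DAB1. Most of those in the neocortex die during the first weeks after birth, whereas many hippocampal ones persist, and p73, the protein of Trp73, is known for keeping them alive. SEL1L is the adaptor of the ubiquitin ligase HRD1 in endoplasmic reticulum (ER)-associated degradation (ERAD), which removes misfolded proteins from the ER, and the unfolded protein response (UPR) raises ER chaperones and ERAD genes when such proteins build up.

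Single-nucleus RNA was measured by 10x Genomics 3′ v3 chemistry in nuclei sorted from dissected cortex and hippocampus. The mice were 5 weeks old, on a C57BL/6J background, and 2 of each genotype gave 4 libraries. All 4 mice carried Sel1L flox/flox, in which Sel1L stays intact unless Cre removes a part flanked by loxP sites. The Syn-Cre mice also carried Cre under the Synapsin I promoter, which is active in neurons, so that deletion depends on Cre activity in each neuron and spares glia. Values per library follow in the order Sel1L flox/flox replicates 1 and 2, then Sel1L Syn-Cre replicates 1 and 2.

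The deleted gene and the transgene were examined first. Over all kept nuclei, Sel1l had 11911, 6899, 11817 and 9630 UMIs, or 97.1, 90.1, 157 and 130 CPM (the UMIs of a gene per 1000000 UMIs of the nuclei summed in a library), and was thus higher in both libraries labelled Sel1L Syn-Cre. Counts from the 3′ end do not show whether the deleted exons remained in these transcripts, so Sel1l does not check the labels. Cre had 490, 0, 262 and 260 UMIs. The library labelled Sel1L flox/flox replicate 1 therefore went against its label at this transgene, and every direction between genotypes below is one between libraries as labelled. Other genes ran with the labels, since over all kept nuclei Derl3, an ERAD gene, had 0.562, 0.535, 17.1 and 10.5 CPM and Hspa5, the gene of the ER chaperone BiP, had 24.7, 24.9, 73.5 and 52.4 CPM. The 4 libraries held 7366 to 12599 barcodes and 74082610 to 122870443 UMIs. Each pair of libraries shared 10 to 34 barcodes, none of them a Cajal-Retzius nucleus.

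Cajal-Retzius nuclei were rare in every library. Their share of kept nuclei was 0.259% (exact binomial 95% interval 0.177 to 0.365, 32 of 12362), 0.213% (0.127 to 0.337, 18 of 8436), 0.335% (0.221 to 0.487, 27 of 8065) and 0.373% (0.246 to 0.543, 27 of 7231). The intervals cover counting error only. The mean share was 0.236% ± 0.0322 (SD, n = 2) in libraries labelled Sel1L flox/flox and 0.354% ± 0.0273 (SD, n = 2) in those labelled Sel1L Syn-Cre, and the groups did not overlap. The two-sided exact permutation test over the 4 libraries gave p = 0.33, which is the smallest value that 2 libraries against 2 can give. A share depends on the other nuclei caught in a library as well as on the Cajal-Retzius nuclei. Per 100 dentate gyrus (DG) granule-like nuclei, which numbered 658, 365, 312 and 265, there were 4.86, 4.93, 8.65 and 10.2 Cajal-Retzius nuclei.

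The nuclei were also shallow. Their median was 3683, 2738, 4091 and 3152 UMIs, against 7809, 7580, 7691 and 8648 UMIs for all kept nuclei, so that in each library it lay below. Summed over the Cajal-Retzius nuclei, the libraries gave 222619, 83858, 146255 and 137204 UMIs, 589936 in all, which is the depth behind every comparison that follows. A gene without a UMI in a group of 2 libraries could still have been present at up to 9.79 CPM in the nuclei labelled Sel1L flox/flox and 10.6 CPM in those labelled Sel1L Syn-Cre, the levels that 3 counts would give.

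**Figure D1:**
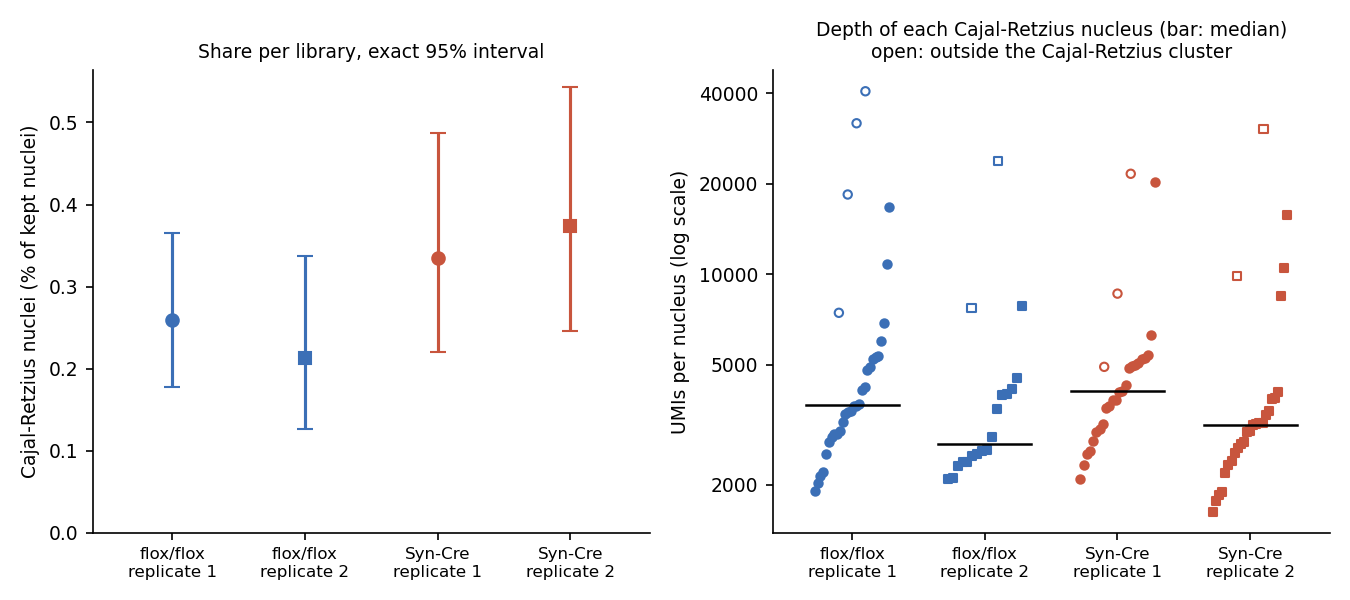
Left, share of Cajal-Retzius nuclei among kept nuclei (%) in each library, with exact 95% binomial intervals. Right, UMIs of each Cajal-Retzius nucleus on a log scale, with bars at the medians of 2738 to 4091 and open symbols for the 11 nuclei outside the Cajal-Retzius cluster, whose median was 18421 UMIs.

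Most of the nuclei chosen by the rule also grouped together by their most variable genes. The genes of the rule were not removed beforehand, so this grouping is not an independent check of the rule. In an unsupervised Leiden clustering of all kept nuclei without integration, 1 of 48 clusters held 93 of the 104 nuclei (28, 16, 24 and 25 per library). That cluster had 118 nuclei, and 24 of its 25 other nuclei lacked a Trp73 UMI. The remaining 11 nuclei (4, 2, 3 and 2 per library) were spread over 9 clusters and were deeper, with a median of 18421 UMIs (4924 to 40600) against 3411 inside. They contributed 44.1%, 37.5%, 24.0% and 29.4% of the Cajal-Retzius UMIs of their libraries, 34.8% in all. Of the 9 nuclei with doublet scores in the range left out as an alternative, 7 were among these 11. Slc17a7, the vesicular glutamate transporter of cortical pyramidal neurons, had only 19 of its 70 UMIs in the 93 nuclei inside the cluster, and Mbp, a myelin gene, had 37 of 114. Values for the 93 nuclei inside the cluster are therefore given beside many of those for all 104.

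The nuclei near the edge of the rule differed in depth and in other markers. Of 270 kept nuclei with a Trp73 UMI, 6 had at least 2 Gad1 and Gad2 UMIs, 138 had none of the 5 further genes, 22 had 1 and 104 were members. The 13 members just inside, with 2 further genes, had a median of 3181 UMIs, 12 had Reln, 7 had Ebf3 and 9 lay in the cluster. The 22 nuclei just outside, with 1 further gene, had a median of 11990.5 UMIs, 15 had Reln, 0 had Ebf3, 14 had Slc17a7 and 1 lay in the cluster. A lone Trp73 UMI was all that 8 of the 13 and 19 of the 22 had.

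The genes of the rule varied widely from nucleus to nucleus. Trp73 had 106, 51, 81 and 70 UMIs, with a median of 2 and at most 16 UMIs in a nucleus. Reln was seen in 103 of 104 nuclei with a median of 24 and at most 101 UMIs, and had 1045, 441, 754 and 587 UMIs, or 4694, 5259, 5155 and 4278 CPM. These levels overlapped between genotypes. Ndnf, which encodes a secreted fibronectin-domain protein, was seen in 97 nuclei, and Cacna2d2, which encodes an auxiliary calcium channel subunit, was seen in 97 as well. The LIM-homeobox transcription factor genes Lhx1 and Lhx5 were seen in 35 and 16 nuclei, with 58 and 21 UMIs in all. The 43 nuclei with a Lhx1 or Lhx5 UMI and the 61 without had medians of 3513 and 3822 UMIs, and Ebf3 was found in 81.4% and 67.2% of them, Slc17a6 in 41.9% and 42.6% and Nhlh2 in 23.3% and 36.1%.

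Markers that the rule did not use were then checked against the label. Ebf3, a transcription factor gene of Cajal-Retzius cells, had 80, 28, 42 and 35 UMIs and was found in 73.1% of the nuclei but in 1.29% of the other kept nuclei, although the latter had deeper medians (7580 to 8648 UMIs, all kept nuclei). Lhx1os was found in 32.7% against 0.186%, Nhlh2 in 30.8% against 0.197%, Nr2f2 in 50% against 7.07% and Barhl2 in 14.4% against 0.0778%. Slc17a6, the vesicular glutamate transporter VGLUT2 that Cajal-Retzius neurons use, had 21, 5, 35 and 13 UMIs and was found in 42.3% against 6.87%. The label held at these genes. Other markers were thin, with Calb2 (calretinin) at 21 UMIs in 15 nuclei and Cxcr4, the chemokine receptor that holds the cells beneath the meninges, at 4 UMIs in 4 nuclei. The 14 UMIs of Ebf2 all came from 1 nucleus outside the cluster. Rbfox3, the gene of the neuronal marker NeuN, was low, at 168 CPM on average (71.4 CPM inside the cluster) against 401 CPM in the other kept nuclei, whereas Stmn2, a gene of growing axons, stood at 197 CPM against 102 CPM.

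The genes most particular to these nuclei by level were ranked by their lowest ratio, over the 4 libraries, of CPM in Cajal-Retzius nuclei to CPM in the other kept nuclei of the same library. This ranking describes the nuclei that the rule chose and carries no test. The first 20 genes were Trp73, Lhx5, Gm27199, Lhx1, Ndnf, Nhlh2, Mab21l3, Lhx1os, Gm31938, Shisal2b, Cd274, Ebf3, Reln, Dach1, Gm29683, Gm10475, Eln, Gm49027, Tead3 and Pik3c2g, with lowest ratios from 799 for Trp73 to 28.9 for Pik3c2g. Between 87.5% and 100% of their UMIs came from the 93 nuclei inside the cluster. Cd274, which encodes the immune checkpoint ligand PD-L1, had 85.3, 143, 88.9 and 87.5 CPM against 0.686 to 0.907 CPM elsewhere. Dach1, a transcriptional cofactor gene, had 1271, 1455, 1901 and 1319 CPM against 12.7 to 26.7 CPM, and was found in 100 of the 104 nuclei. Eln, which encodes the matrix protein elastin, had 220, 179, 328 and 379 CPM against 4.30 to 6.44 CPM.

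**Figure D2:**
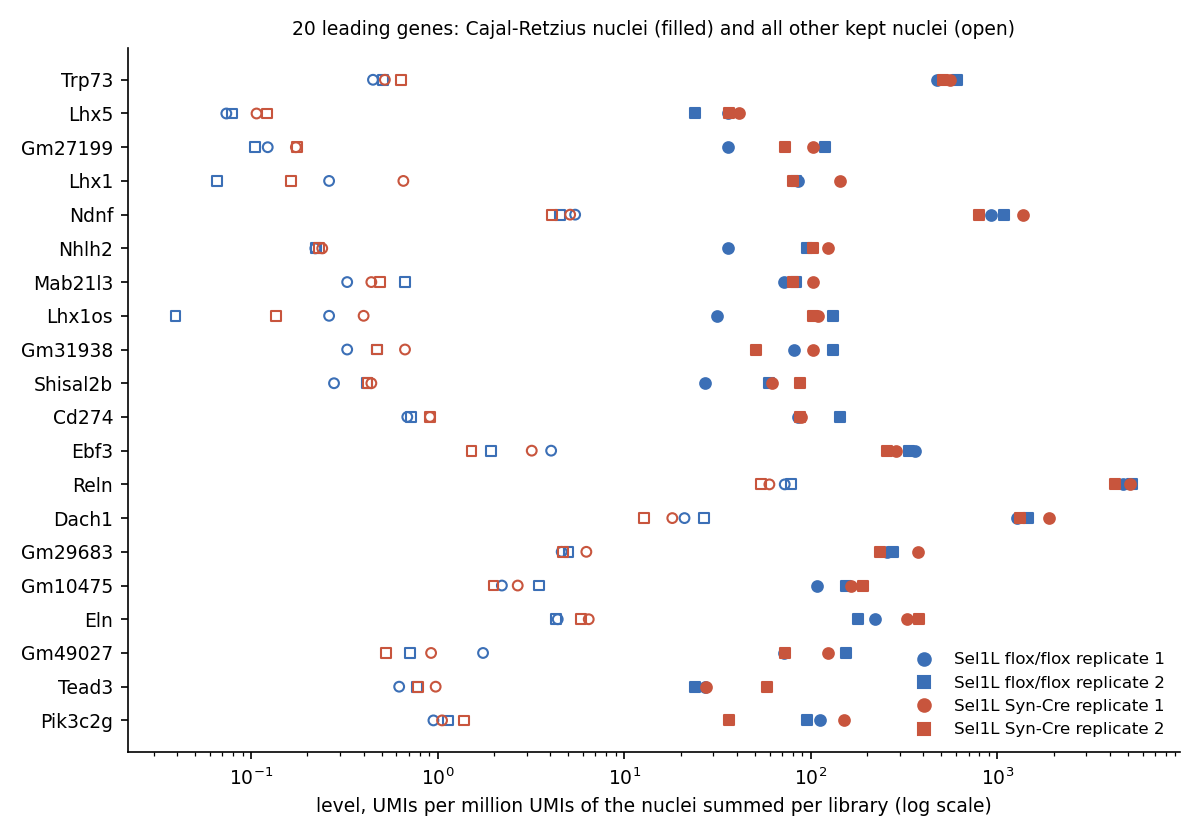
Level in CPM (log scale) of the 20 leading genes in each library, in Cajal-Retzius nuclei (filled) and in all other kept nuclei (open). The 4 filled symbols of each gene lie to the right of its 4 open ones, by 799 times or more for Trp73 and 28.9 times or more for Pik3c2g.

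Several of the leading genes lie beside each other in the genome (GENCODE vM21, GRCm38). Gm27199 (chr5:120419659-120431767, minus strand) is an antisense gene that overlaps the start of Lhx5 (chr5:120431699-120441223, plus strand), and Gm10475 (chr5:21910931-21954014, plus strand) lies antisense within Reln (chr5:21884454-22344702, minus strand). Lhx1os (chr11:84525660-84535831, plus strand) starts 124 bases from Lhx1 (chr11:84518284-84525535, minus strand) and runs the other way. Gm29683 (chr7:70178868-70337852, minus strand) lies 14091 bases from Nr2f2, a gene that was itself found in 52 nuclei. Whether reads were counted by strand is not given in the sources used here, so reads of Gm27199 and Lhx5, or of Gm10475 and Reln, could not be told apart where the genes overlap. Lhx1 and Lhx1os do not overlap. The 250 bases before the start of Lhx1 (RefSeq, GRCm38.p6, chr11:84525535-84525784, minus strand, written 5′ to 3′ toward Lhx1) are shown because they hold the gap between this pair of genes that rank together, with the only match of the box CCAAT, on the opposite strand, in capitals.
Lhx1: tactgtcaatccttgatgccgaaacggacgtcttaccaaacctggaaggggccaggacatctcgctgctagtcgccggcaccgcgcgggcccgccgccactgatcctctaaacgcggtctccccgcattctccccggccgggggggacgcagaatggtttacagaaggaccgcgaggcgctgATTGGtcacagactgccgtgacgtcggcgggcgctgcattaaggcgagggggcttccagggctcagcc
The box lies 68 to 64 bases before the start, and 37.4% of 32851 promoters (250 bases before to 50 after the start) hold it on either strand. Lhx1 had 19, 7, 21 and 11 UMIs and Lhx1os had 7, 11, 16 and 14 UMIs.

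The first question between genotypes was which genes differed in the Cajal-Retzius nuclei themselves. UMIs were summed per library over these nuclei and compared with the quasi-likelihood test of edgeR, and 0 of 3142 tested genes (0%) passed an adjusted p of 0.05. Without adjustment 108 genes had p under 0.05. DESeq2 also called 0, with 28 unadjusted. The median log2 fold change of all genes was -0.00081, with 1568 genes higher and 1574 lower in libraries labelled Sel1L Syn-Cre. In the 118 nuclei of the Cajal-Retzius cluster, members or not, 4 of 2700 genes (0.148%) passed, Cntn4 higher and Trhde, Rgs6 and Trpm3 lower, and in the 93 members inside it 0 of 2226 did. In simulated sums of these libraries the test recovered 9 of 67 genes changed 2-fold, 46 of 67 changed 4-fold and 65 of 66 changed 8-fold. Thus even there 2-fold differences were mostly not detected. The simulation gave all 3142 genes the same dispersion and no nucleus with many UMIs of a gene, so recovery in the real sums may be lower. Gm32647 and Grm8 had log2 fold changes of 7.38 and -3.01 and did not pass (adjusted p = 0.925 by edgeR's quasi-likelihood test).

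None of the gene lists with tested members held a called gene, and the counts below describe their direction only. Of the Cajal-Retzius genes outside the rule, 5 of 17 were tested and 3 were higher. Nhlh2 had 35.9, 95.4, 123 and 102 CPM (log2 fold change 1.01, SE 0.531, adjusted p = 1.00 by edgeR's quasi-likelihood test), and Ebf3 had 359, 334, 287 and 255 CPM (-0.36, SE 0.325). The libraries of the genotypes did not overlap at either gene, but the differences were not larger than the spread allowed for by the test. Eln had 49, 15, 48 and 52 UMIs, a log2 fold change of 0.80 (SE 0.338) that did not pass after adjustment.

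Of the reelin pathway, the ligand gene Reln overlapped between genotypes. Dab1, the intracellular adaptor, had 310, 51, 126 and 101 UMIs and a log2 fold change of -0.34 (SE 0.434). The receptor genes were sparse, with 3, 2, 2 and 0 UMIs of Vldlr and 9, 5, 18 and 8 of Lrp8, which encodes APOER2. Of the 6 members tested, 3 were higher and 3 lower, with a median of -0.12. Downstream, Pafah1b1, the gene of the dynein regulator LIS1, had 63, 23, 45 and 40 UMIs and a log2 fold change of 0.10 (SE 0.324).

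Among genes of ion channels, neurotransmitter receptors and chloride transport, 20 of 29 were tested, 8 higher and 12 lower with a median of -0.07. Slc12a2 and Slc12a5, the chloride importer NKCC1 and exporter KCC2, had 11, 4, 4 and 3 and 18, 1, 2 and 4 UMIs. Averaged over the libraries they stood at 36.6 and 33.9 CPM in the Cajal-Retzius nuclei and at 74.5 and 114 CPM in the other kept nuclei. Inside the cluster the values were 26.8 and 16.3 CPM. The calcium channel subunit gene Cacna2d1 stood higher than elsewhere, at 1420 CPM against 666 CPM, and Grin2a, an NMDA receptor subunit gene, stood lower, at 666 CPM (337 CPM inside the cluster) against 1670 CPM.

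Cell death genes were followed because most Cajal-Retzius neurons of the neocortex are lost after birth. Tnfrsf21, which encodes death receptor 6, had 47, 26, 37 and 32 UMIs and was found in 67.3% of the nuclei against 29.2% of the deeper other nuclei, with mean levels of 252 and 46.6 CPM. Bbc3, a pro-death BCL2 family gene that p53 family proteins induce, had 3, 2, 2 and 2 UMIs (16.4 against 4.73 CPM). Trp63 and Cdkn1a were without a UMI. The summed level of the 18 genes was 485, 620, 670 and 568 CPM and overlapped between genotypes. Of the 4 tested between genotypes 2 were higher and 2 lower.

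The ER genes that the deletion of Sel1l is known to raise were examined next, beside the same genes in other neurons of the same libraries. Those were 1600 DG granule-like nuclei, 1068 CA1-like nuclei and 275 interneurons with Gad1 or Gad2, Reln and Ndnf UMIs, each named from marker genes. The cluster that held most of each group, its main cluster, held 1284, 716 and 139 of them. Doublet scores in the range left out as an alternative were found in 280, 135 and 39. In Cajal-Retzius nuclei, Sel1l had 23, 5, 14 and 16 UMIs, or 103, 59.6, 95.7 and 117 CPM, and the genotypes overlapped. Inside the cluster its level was 80.4, 76.4, 81.0 and 82.6 CPM. In DG granule-like nuclei it was 85.0, 74.4, 196 and 176 CPM, and in the interneurons 104, 95.9, 226 and 177 CPM. In CA1-like nuclei it was 102, 107, 130 and 108 CPM, and 107, 109, 113 and 102 CPM inside their main cluster, so a flat Sel1l was not particular to Cajal-Retzius nuclei. Cre itself was seen with 0, 0, 1 and 0 UMIs in Cajal-Retzius nuclei, or 3.53 CPM (exact Poisson interval 0.0893 to 19.7) in the libraries labelled Sel1L Syn-Cre, and with 5.67 CPM (3.97 to 7.85) in DG granule-like nuclei, so a difference in Cre was not detectable at this depth.

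The summed level of 23 ER chaperone and folding enzyme genes was 723, 775, 766 and 1210 CPM in Cajal-Retzius nuclei, and 772, 916, 756 and 981 CPM in the 93 inside the cluster, where the genotypes overlapped. It was 768, 765, 2130 and 1657 CPM in DG granule-like nuclei, 682, 701, 959 and 804 CPM in CA1-like nuclei and 715, 712, 1486 and 1375 CPM in the interneurons. The ratio of pooled levels, Sel1L Syn-Cre over Sel1L flox/flox, was 1.33 (exact interval 1.11 to 1.59, counting error only) in all 104 Cajal-Retzius nuclei. It was 2.48 (2.42 to 2.55) in DG granule-like, 1.27 (1.23 to 1.32) in CA1-like and 2.01 (1.88 to 2.14) in interneuron nuclei. Inside the cluster the Cajal-Retzius ratio was 1.06 (0.844 to 1.33). The other groups inside their main clusters had 2.82 (2.73 to 2.92), 1.12 (1.07 to 1.17) and 2.45 (2.22 to 2.71) in the same order. In both settings the interval in Cajal-Retzius nuclei lay below those of DG granule-like nuclei and interneurons and overlapped that of CA1-like nuclei. These intervals leave out the spread between mice. In the 23 ERAD genes the ratios were 0.988 (0.839 to 1.16), 1.41 (1.37 to 1.45), 1.13 (1.10 to 1.17) and 1.35 (1.27 to 1.44) in Cajal-Retzius, DG granule-like, CA1-like and interneuron nuclei.

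**Figure D3:**
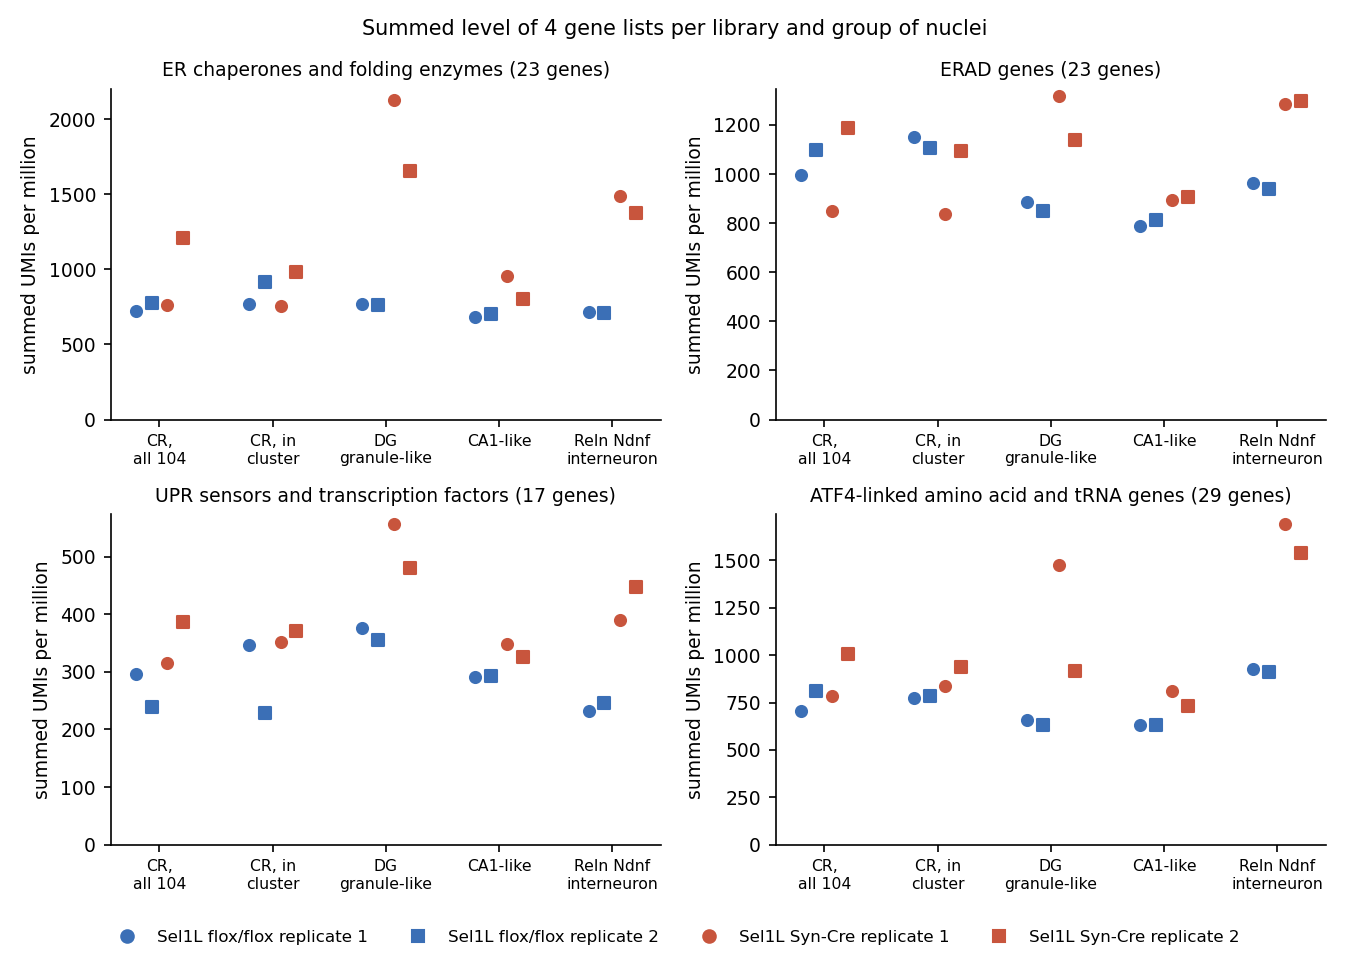
Summed level (CPM) of 4 gene lists in each library, for all 104 Cajal-Retzius (CR) nuclei, the 93 inside their cluster and the 3 other groups of neurons. For ER chaperones the Sel1L Syn-Cre points stand at 2130 and 1657 in all DG granule-like nuclei. They stand at 766 and 1210 in all Cajal-Retzius nuclei and at 756 and 981 in those inside the cluster.

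The genes of the UPR itself were sparse. The summed level of 17 UPR sensors and transcription factors was 296, 238, 315 and 386 CPM in Cajal-Retzius nuclei (ratio 1.24, interval 0.923 to 1.68), while DG granule-like nuclei had 376, 356, 557 and 479 CPM. The 29 ATF4-linked amino acid and tRNA synthetase genes, which the integrated stress response raises, stood at 705, 811, 786 and 1006 CPM (ratio 1.22, 1.01 to 1.46, and 1.14, 0.910 to 1.43, inside the cluster), against ratios of 1.86 (1.81 to 1.92) in DG granule-like, 1.75 (1.65 to 1.86) in interneuron and 1.22 (1.18 to 1.27) in CA1-like nuclei, where it was 1.00 (0.955 to 1.05) inside their main cluster. Cajal-Retzius and CA1-like nuclei thus had like ratios. The 15 one-carbon and serine genes stood at 404, 322, 390 and 423 CPM (ratio 1.06, 0.814 to 1.39), against 1.27 (1.21 to 1.34) in DG granule-like, 1.15 (1.09 to 1.21) in CA1-like and 1.29 (1.17 to 1.42) in interneuron nuclei, and these intervals overlapped that of Cajal-Retzius nuclei. Trib3 and Atf3 were without a UMI in Cajal-Retzius nuclei.

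Single ER genes varied in the same nuclei. Derl3, a derlin gene of ERAD that rises strongly when the UPR is active, had 1, 0, 0 and 1 UMIs in Cajal-Retzius nuclei and none inside the cluster. In DG granule-like nuclei it had 7, 2, 157 and 85 UMIs, in CA1-like nuclei 0, 0, 25 and 14, and in the interneurons 0, 0, 23 and 20. Inside the cluster, 0 UMIs in the libraries labelled Sel1L Syn-Cre allow up to 14.4 CPM, which is below the 47.3 CPM (exact Poisson interval 40.9 to 54.3) of the DG granule-like nuclei in their main cluster. Pooled over the same libraries, CA1-like nuclei had 4.57 CPM and 1.90 CPM inside their main cluster, both below that limit, so Cajal-Retzius nuclei could not be told from them at this depth. Hspa5, the gene of the chaperone BiP, had 6, 4, 5 and 8 UMIs, or 27.0, 47.7, 34.2 and 58.3 CPM, and overlapped, whereas DG granule-like nuclei had 26.6, 29.3, 114 and 99.0 CPM. Hsp90b1, the gene of the chaperone GRP94, had 13, 8, 8 and 9 UMIs, or 58.4, 95.4, 54.7 and 65.6 CPM, against 67.9, 62.1, 278 and 208 CPM. Herpud1, an ERAD scaffold gene, had 3, 4, 6 and 12 UMIs, and Dnajc3, which encodes a co-chaperone of BiP, had 7, 0, 12 and 7. Both stood higher when pooled over the libraries labelled Sel1L Syn-Cre (Herpud1 ratio 2.78, 1.11 to 7.88, Dnajc3 ratio 2.94, 1.18 to 8.26), but inside the cluster the ratios were 1.70 (0.590 to 5.52) and 1.53 (0.460 to 5.81).

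**Figure D4:**
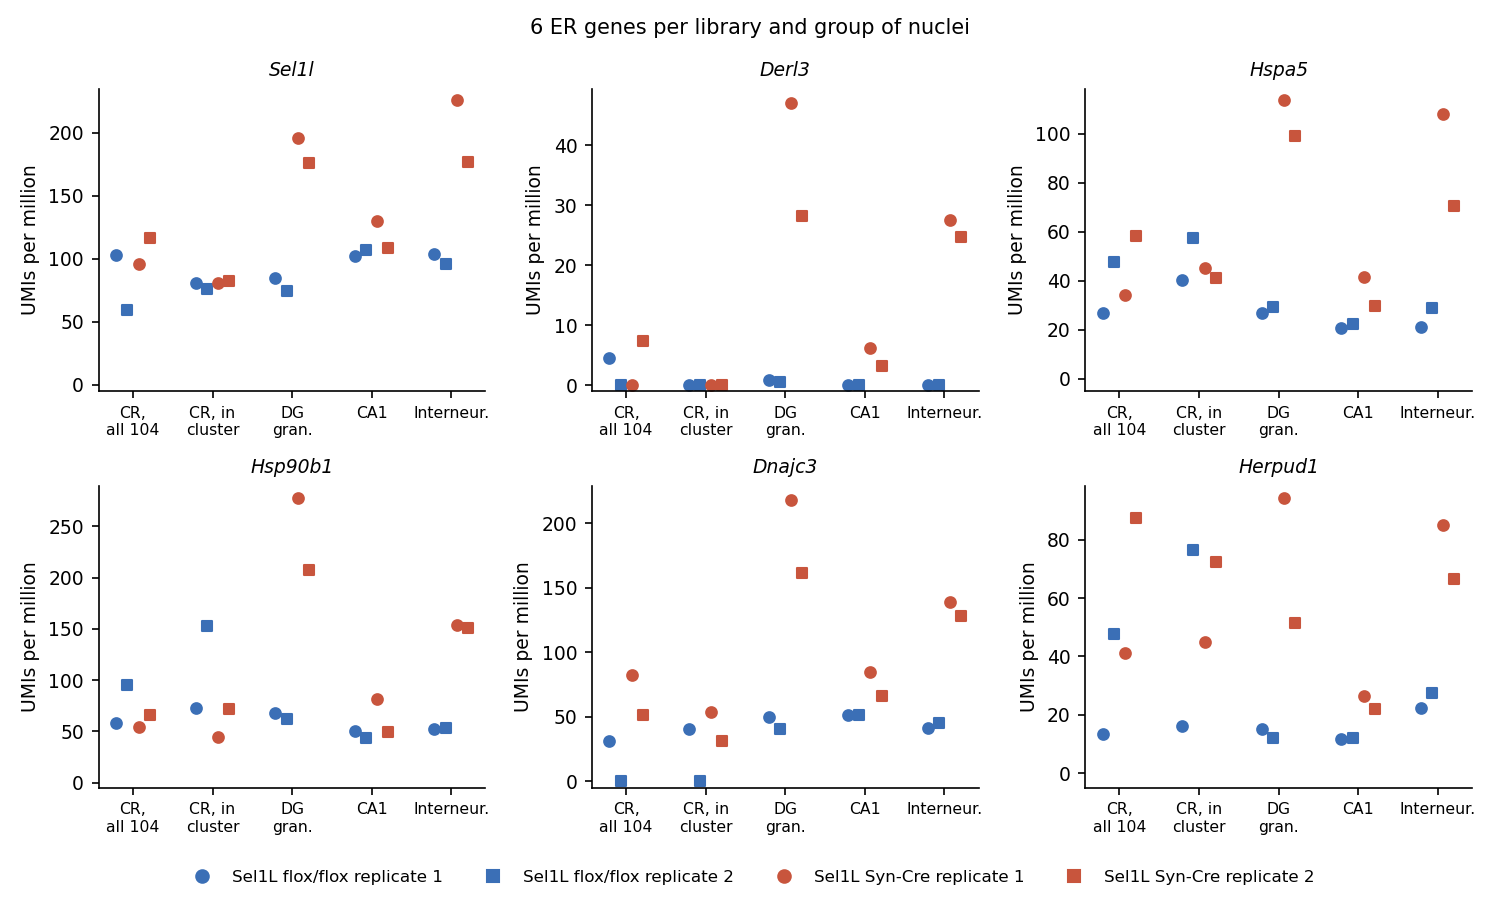
Level (CPM) of 6 ER genes in each library for all 104 Cajal-Retzius (CR) nuclei, the 93 inside their cluster, and DG granule-like, CA1-like and interneuron (Interneur.) nuclei. For Hsp90b1 the Sel1L Syn-Cre points are 278 and 208 in DG granule-like nuclei and 54.7 and 65.6 in Cajal-Retzius nuclei, and 0 is drawn where a library had no UMI.

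Derl3 and Hspa5 carry the ER stress response element (ERSE, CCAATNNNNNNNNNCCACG on either strand) in the 250 bases before their start, and these are shown because the element binds the UPR factor ATF6 and both genes rose in DG granule-like nuclei (log2 fold changes 5.53, SE 0.411, and 1.89, SE 0.137, each with adjusted p = 0.00267 by edgeR's quasi-likelihood test). Sequences are from RefSeq (GRCm38.p6), both on the plus strand, 5′ to 3′, at chr10:75893148-75893397 for Derl3 and chr2:34771840-34772089 for Hspa5, with the element in capitals.
Derl3: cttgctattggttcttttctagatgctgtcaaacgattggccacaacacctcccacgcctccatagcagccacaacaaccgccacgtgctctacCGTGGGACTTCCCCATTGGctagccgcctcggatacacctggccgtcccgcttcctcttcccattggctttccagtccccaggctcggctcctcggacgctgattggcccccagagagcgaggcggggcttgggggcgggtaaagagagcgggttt
Hspa5: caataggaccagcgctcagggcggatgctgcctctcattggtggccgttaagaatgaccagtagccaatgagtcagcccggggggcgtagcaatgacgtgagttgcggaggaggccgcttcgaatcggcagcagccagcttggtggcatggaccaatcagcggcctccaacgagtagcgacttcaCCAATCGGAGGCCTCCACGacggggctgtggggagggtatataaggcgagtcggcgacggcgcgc
The element lies on the minus strand 156 to 138 bases before the start of Derl3 and on the plus strand 65 to 47 bases before that of Hspa5. It was found in 39 of 32851 promoters (0.119%), among them 7 of the 18 ER chaperone genes with a promoter in the table (Calr, Canx, Creld2, Dnajc3, Hsp90b1, Hspa5 and Pdia6) and 2 of 18 ERAD genes (Derl3 and Syvn1). None of the 14 leading Cajal-Retzius genes with a promoter held it. It contains the box CCAAT.

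Whether genotype differences in Cajal-Retzius nuclei were unlike those of the other neurons was tested gene by gene with an interaction of cell group and genotype, with library as a block. Against DG granule-like nuclei 5 of 13107 genes (0.0381%) passed, against CA1-like nuclei 3 of 13250 (0.0226%) and against the interneurons 0 of 9028 (0%), where 310 had an unadjusted p under 0.05. DESeq2 called 0 in each, with 131, 130 and 58 unadjusted. The 104 nuclei entered each comparison and the libraries are the same in all 3, so these results are not independent. No ER gene was among those called.

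Of 22 ER chaperone genes tested against DG granule-like nuclei, 19 had a lower genotype difference in Cajal-Retzius nuclei. The median difference of the 22 was -0.83 (log2) against 0.03 for all genes, of which 6363 were lower and 6741 higher. Of the 22, 11 were called higher in DG granule-like nuclei alone, where 0.235% of all genes were. In the Cajal-Retzius sums alone only 3 of 23 ER chaperone genes and 8 of 23 ERAD genes had enough UMIs to be tested. Most were thus tested here through the deeper sums of the other nuclei, and the tallies cannot be separated from any rise there. The 5 of the 22 with an unadjusted p under 0.05 were Hspa5, Hsp90b1, Sdf2l1, Uggt1 and Pdia4. Over all 13107 genes, 443 had such a p. Sdf2l1 had only 4, 0, 0 and 1 UMIs in Cajal-Retzius nuclei. Hsp90b1 had a difference of -2.08 (SE 0.578, adjusted p = 0.234 by edgeR's quasi-likelihood test), and Hspa5 had -1.45 (SE 0.726, adjusted p = 1.00). Of 23 ERAD genes 18 were lower, with a median of -0.60. Against the interneurons 14 of 20 ER chaperone genes and 19 of 23 ERAD genes were lower, with medians of -0.54 and -0.66. Over all genes 4493 were lower and 4534 higher there. Against CA1-like nuclei 9 of 21 and 15 of 23 were lower, with medians of 0.11 and -0.32. All genes there divided into 6642 lower and 6605 higher. In CA1-like nuclei alone 0 of 21 ER chaperone genes were called higher (0.00735% of all genes were).

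In an alternative chosen after seeing the data, both groups of nuclei were restricted to the cluster that held most of them (1284 of 1600 DG granule-like nuclei). There, 7 of 11382 genes (0.0615%) differed from DG granule-like nuclei, and among them were Hsp90b1 (-2.77, SE 0.641, adjusted p = 0.0293 by edgeR's quasi-likelihood test) and Creb3l2, which encodes a transcription factor of the ER membrane (-4.98, SE 1.08, adjusted p = 0.00988). Hsp90b1 had 9, 8, 5 and 7 UMIs in 27 of the 93 Cajal-Retzius nuclei and Creb3l2 had 6, 2, 5 and 2 UMIs in 14. In DG granule-like nuclei of the main cluster, Creb3l2 had 13, 3, 139 and 95 UMIs and Hsp90b1 had 326, 179, 756 and 460. In that setting 18 of 22 ER chaperone genes were lower in Cajal-Retzius nuclei (median -1.28), as were 5457 genes in all, with 5916 higher. In DG granule-like nuclei 20 of 22 were called higher, where 1.49% of all genes were. Neither the tally nor the calls of Hsp90b1 and Creb3l2, sparse in Cajal-Retzius nuclei, can be separated from the rise in DG granule-like nuclei. The other 5 genes called, Dpp10, Brinp3, Cntn4, Sgcz and Rapgef5, were higher in Cajal-Retzius nuclei, and up to 113 UMIs of Dpp10 and 60 of Cntn4 came from 1 nucleus. Sel1l differed by -1.29 (SE 0.625, adjusted p = 1.00). Against CA1-like nuclei 9 of 11871 genes (0.0758%) and against interneurons 3 of 5905 (0.0508%) passed, and no gene of the ER lists was among them. In the interneurons of that setting 7 of 18 ER chaperone genes were called higher, where 0.612% of all genes were.

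The genes called in the interaction without that restriction had many of their UMIs in a few nuclei. Gm32647, a long noncoding RNA gene on chromosome 7, had 0, 0, 28 and 12 UMIs in Cajal-Retzius nuclei, of which 28 came from 1 nucleus and 1 came from inside the cluster. Its genotype difference exceeded that of DG granule-like nuclei by 10.4 (log2, SE 2.17, adjusted p = 0.00541 by edgeR's quasi-likelihood test) and that of CA1-like nuclei by 11.3 (SE 1.63, adjusted p = 5.01e-08), values that depend on the count added to libraries at 0. Grm8, a presynaptic metabotropic glutamate receptor gene, had 56, 50, 6 and 8 UMIs in 16 nuclei, with 30 and 41 in 1 nucleus each of the libraries labelled Sel1L flox/flox. Its differences were -3.02 (SE 0.502) and -3.05 (SE 0.519) from DG granule-like and CA1-like nuclei. Inside the cluster it had 5, 9, 0 and 8 UMIs.

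Zfp804b, a zinc finger gene, had 3, 4, 10 and 35 UMIs (3, 1, 5 and 3 inside the cluster) and fell by 1.75 (log2, SE 0.153) in DG granule-like nuclei, giving a difference of 4.33 (SE 0.597). Its UMIs were too few for a test in the Cajal-Retzius sums alone, so it was tested here through the deeper sums of DG granule-like nuclei. The difference cannot be separated from the fall there. The noncoding 6530403H02Rik had 6, 1, 22 and 13 UMIs (5, 1, 2 and 12 inside the cluster), 20 of them in 1 nucleus, and a difference of 3.17 (SE 0.616). Unc5d, a netrin receptor gene, had 6, 6, 9 and 29 UMIs (1, 6, 0 and 16 inside the cluster) and a difference of 2.53 (SE 0.567). Erbb4, a neuregulin receptor gene that marks interneurons, had 18, 31, 4 and 8 UMIs (8, 2, 2 and 0 inside the cluster) and differed from CA1-like nuclei by -2.79 (SE 0.532). With the 93 nuclei inside the cluster alone, none of these genes passed. There 2 genes passed against DG granule-like nuclei (Brinp3 and Cntn4) and 6 against CA1-like nuclei (Adamtsl1, Cntn4, Ptprk, Mdga1 and Arhgap6 higher, Trpm3 lower). These last genes were chosen for mention after their values were seen.

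The genes nearest to passing between genotypes in the Cajal-Retzius nuclei, the 5 lowest in unadjusted p in each direction, did not pass. Those with higher values in libraries labelled Sel1L Syn-Cre were Gm32647, 6530403H02Rik, Slc1a2, Trps1 and Cobll1, with log2 fold changes of 1.49 to 7.38, and those with lower values were Grm8, Olfm3, Bcl11b, Frmd5 and Pakap, with -3.01 to -1.41. In Grm8, Olfm3, Bcl11b and Frmd5 the nuclei with the most UMIs held 30, 21, 21 and 49 of the 56, 30, 29 and 71 UMIs of the library labelled Sel1L flox/flox replicate 1. Cobll1, which encodes an actin-binding protein, was spread more evenly. It had 17, 10, 41 and 33 UMIs in 10, 7, 19 and 17 nuclei, at most 8 in any. Its log2 fold change was 1.49 (SE 0.378, adjusted p = 1.00 by edgeR's quasi-likelihood test), and inside the cluster, with 13, 6, 39 and 32 UMIs, it was 1.68 (SE 0.357, adjusted p = 0.548).

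**Figure D5:**
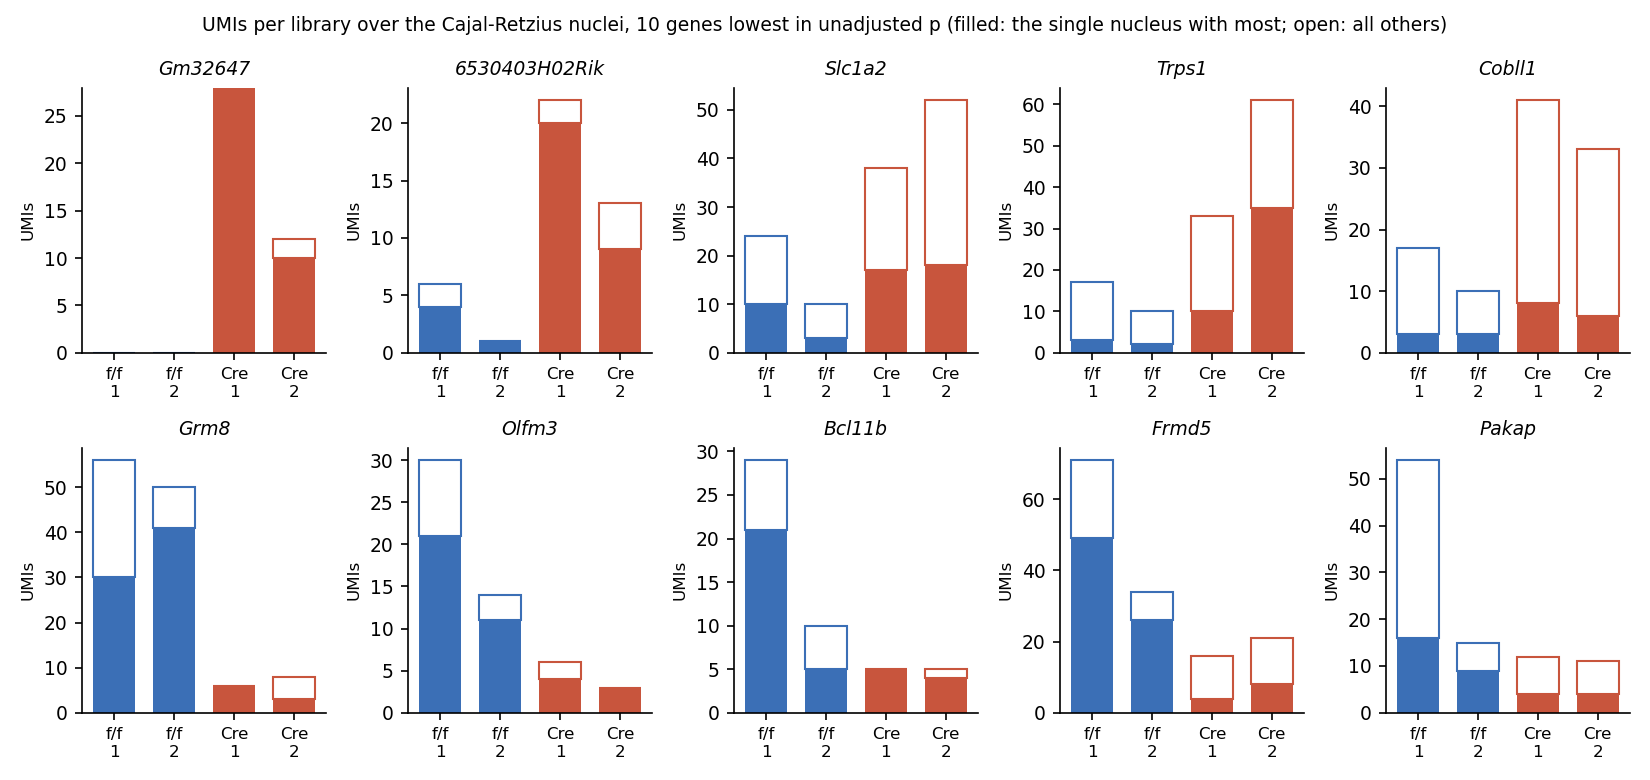
UMIs per library over the Cajal-Retzius nuclei for the 10 genes lowest in unadjusted p, 5 higher (top) and 5 lower (bottom) in libraries labelled Sel1L Syn-Cre (Cre) than in those labelled Sel1L flox/flox (f/f). The filled part of a bar is the nucleus with the most UMIs, which holds 28 of 28 in the Sel1L Syn-Cre replicate 1 library for Gm32647 but at most 8 in any library for Cobll1.

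Markers of other cell types moved with some of these libraries. The summed level of 8 oligodendrocyte and precursor genes in Cajal-Retzius nuclei was 238, 1920, 274 and 241 CPM, and 273, 191, 351 and 237 CPM inside the cluster. Of Mbp, which had 20, 69, 17 and 8 UMIs, 1 nucleus held 68. The 6 astrocyte genes stood at 121, 143, 390 and 386 CPM (88.4, 134, 126 and 361 inside the cluster), with Slc1a2, a glutamate transporter gene, at 24, 10, 38 and 52 UMIs (10, 7, 9 and 34 inside the cluster), Aqp4 at 2 UMIs in all and Aldh1l1 at 0. The 10 GABAergic genes stood at 220, 417, 103 and 197 CPM, with Gad2 and Pvalb at 0. The rule allowed at most 1 UMI of Gad1 and Gad2 together, so their low counts follow from the choice of nuclei. The 6 microglial genes stood at 85.4, 227, 54.7 and 51.0 CPM, with Tmem119 at 0. Inside the cluster the GABAergic genes had 153, 95.4, 117 and 51.6 CPM and the microglial genes 64.3, 57.3, 45.0 and 72.3 CPM. The high values of the library labelled Sel1L flox/flox replicate 2 were thus not seen there. Vascular and leptomeningeal genes stood at 31.4, 23.8, 13.7 and 29.2 CPM, with Cldn5, Col1a1, Slc6a13 and Pdgfrb at 0. Of the ependymal and choroid plexus genes, Foxj1, Folr1, Ccdc153 and Tmem212 were at 0, and of the neuroblast genes, Eomes was at 0. The part of other cell types in the values of Slc1a2, Erbb4 and Mbp was not tested.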

How the data were processed

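Per the labels and the submitters' processing notes, the authors mapped reads of 10x Genomics 3′ v3 libraries with Cell Ranger 6.1.0 (GRCm38) and deposited raw UMI counts of 32286 features per barcode. Intron and strand settings are not given in the sources used here. Everything else was computed from these counts. Nuclei with more than 600 genes and under 5% mitochondrial UMIs were kept, and doublets were not removed except as an alternative (highest Scrublet scores at 0.8% per 1000 nuclei). Clusters were Leiden clusters (resolution 1, 20 neighbours, 30 components of 2000 variable genes, scanpy 1.11.5, leidenalg 0.10.2). The compared neurons were named from marker genes. DG granule-like nuclei had Slc17a7 and at least 3 of Prox1, C1ql2, Dsp, Trpc6 and Glis3. CA1-like nuclei had Slc17a7 and at least 3 of Fibcd1, Spink8, Wfs1, Mpped1 and Zbtb20, with Fibcd1 or Spink8 among them. Both had at most 1 Gad1 and Gad2 UMI, and the interneurons had at least 2 with Reln and Ndnf and without Trp73.

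Counts were summed per library and tested with edgeR 4.0.16 (TMM, filterByExpr, quasi-likelihood F test, two-sided, Benjamini-Hochberg over all tested genes, threshold 0.05), and DESeq2 1.42.0 was an alternative. The self-test drew counts from the mean level of each gene over all sums in a fit and from the real library sizes. It used 1 dispersion for all genes, and some genes were changed by known folds. Against DG granule-like nuclei (13107 genes) the interaction recovered 0 of 67, 12 of 67 and 19 of 66 genes changed 2-, 4- and 8-fold. There both groups of nuclei were given the same mean for a gene, so real genes that are low in Cajal-Retzius nuclei may be recovered less often. CPM in the text are per 1000000 UMIs of the summed nuclei, without TMM. Ratios of summed levels have exact intervals that cover counting error only. Means over libraries weight libraries equally.

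The members, gene lists and comparisons were chosen with earlier results of these data known. Named genes were the 10 largest in each direction among called genes with at least 20 UMIs or, failing that, the 5 lowest in unadjusted p, 5 in each direction for interactions, the 20 leading genes, and the genes of the lists. Restrictions to Leiden clusters were added after seeing the data. With 2 mice per group, the edgeR p-values rest on the spread between these samples together with a spread shared over genes. In the genotype test of Cajal-Retzius nuclei these 2 parts had 2 and 6.05 degrees of freedom. Positions are from GENCODE vM21. A gene of the lists is not reported here. Also used were matplotlib 3.10.9 for figures, scipy 1.17.1 for exact intervals, limma 3.58.1 under R 4.3.3, and scikit-learn 1.9.0, pandas 2.3.3 and numpy 2.4.6 under Python 3.11.15.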

Additional observations from a re-analysis of the deposited data

Results flagged for a closer look

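The difference between 2 kinds of nuclei in the effect of genotype was itself tested, by an interaction in edgeR, and 8 results passed an adjusted p of 0.05. Against DG granule-like nuclei, the genotype difference of Cajal-Retzius nuclei on the log2 scale was higher by 10.4 for Gm32647, 4.33 for Zfp804b, 3.17 for 6530403H02Rik and 2.53 for Unc5d, and was -3.02 for Grm8. Against CA1-like nuclei it was 11.3 for Gm32647, -3.05 for Grm8 and -2.79 for Erbb4. Zfp804b had too few UMIs to be tested in Cajal-Retzius nuclei alone. The nucleus with the most UMIs held 28 of the 40 Gm32647 UMIs, 20 of the 42 UMIs of 6530403H02Rik and 41 of the 120 Grm8 UMIs, and 20, 13 and 29 UMIs of Zfp804b, Unc5d and Erbb4. None of the 8 passed with the nuclei inside the Cajal-Retzius cluster alone, where the lowest adjusted p was 0.771, for Zfp804b, and DESeq2 called none. Over 9 to 11 alternatives the highest adjusted p was 1.00 for the 7 others.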

How the results depend on the processing

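The higher share in libraries labelled Sel1L Syn-Cre kept its direction in all 8 alternative definitions. The difference of means was 0.118 percentage points, and 0.0952 to 0.141 with a library left out. Leaving out a library could not reverse it, because the shares of the 2 groups did not overlap. It was 0.0778 with 3 further markers required, 0.155 for the nuclei of the cluster, 0.121 of nuclei with neuronal UMIs and 4.52 per 100 DG granule-like nuclei. Genes called between genotypes in Cajal-Retzius nuclei went from 0 to 4 in the nuclei of the cluster (0.148% of 2700, Cntn4 higher, Trhde, Rgs6 and Trpm3 lower) and 7 with no filter. They were 39, 21, 15 and 6 without Sel1L flox/flox replicate 1, Sel1L flox/flox replicate 2, Sel1L Syn-Cre replicate 1 and Sel1L Syn-Cre replicate 2, where the lone library of a genotype is assumed to vary like the others. With a replicate block, 0 were called and 95 had an unadjusted p under 0.05. Deviations of same-numbered libraries had a correlation of 0.0538 over 3142 genes. Crossed pairs had -0.0538, which 2 libraries per group fix as the mirror value. The correlation therefore cannot show whether same-numbered libraries shared a batch. Interaction calls against DG granule-like nuclei went from 5 to 0 with DESeq2, 0 with sums thinned to the smallest, 13 without the highest doublet scores, 2 with members inside the cluster, 7 with both groups in their clusters, and 30, 9, 4 and 5 without each library in the same order. Against CA1-like nuclei they went from 3 to 0 with DESeq2, 7 with DESeq2's size factors, 0 when thinned, 15 without doublets, 6 inside the cluster, 9 with both in their clusters, and 31, 20, 4 and 5. Against interneurons they went from 0 to 5 with no filter, 3 with both in their clusters, and 0, 8, 1 and 3. The cause was not tested. Of the values of named genes under the alternatives, 146 kept direction and side of the threshold, 45 no longer passed, 11 newly passed and 5 reversed. These were 6530403H02Rik at -0.35 and Frmd5 at 0.059 in the nuclei of the cluster, Trps1 at -0.011 and Frmd5 at 0.27 for members inside it, and the Grm8 difference from DG granule-like nuclei at 0.42 with both groups in their clusters. The 11 nuclei outside the cluster held 34.8% of the Cajal-Retzius UMIs, and the simulated sums recovered few 2-fold differences. How far either moved these values was not tested.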

Other observations

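In the 118 nuclei of the Cajal-Retzius cluster, of which 25 were not members by the rule, Trpm3, a cation channel gene, had 37, 46, 9 and 4 UMIs in 32 nuclei, a log2 fold change of -2.82 (SE 0.493, adjusted p = 0.00779 by edgeR's quasi-likelihood test) that was lower in 2 of 2 libraries labelled Sel1L Syn-Cre. Of the 37 and 46 Trpm3 UMIs, 18 and 24 came from 1 nucleus each. The members among these nuclei had 35, 18, 7 and 2 Trpm3 UMIs. Cntn4, a cell adhesion gene of axons, had 6, 11, 74 and 47 UMIs (2.69, SE 0.450, adjusted p = 0.00578), of which 60 and 38 came from 1 nucleus each. Rgs6 and Trhde had 50, 25, 2 and 7 and 36, 15, 1 and 2 UMIs, with 41 of the 50 Rgs6 UMIs and 19 of the 36 Trhde UMIs in 1 nucleus each. Over all members Trpm3 had 57, 19, 54 and 5 UMIs and a log2 fold change of -0.24 (SE 0.758), which did not pass. These genes were chosen after their values were seen.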
